A study of Mus musculus with 10 samples.

Results

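The miR-15/16 family is a set of mature miRNAs that share the same seed, the stretch of bases 2 to 8 that pairs with target messenger RNAs. Its members were the rows of the deposited expression table named miR-15a, miR-15b, miR-16, miR-195, miR-322 or miR-497, with or without an arm suffix. This rule found 6 of the 285 listed miRNAs, and each name was present once, without an arm. Small RNA was sequenced from liver tissue in 5 libraries of Tsc1 mutant mice, named L-Tsc1KO in the labels, and 5 libraries of their littermate controls, all aged 14 weeks and fed freely. Tsc1 is a subunit of the TSC complex, which restrains the growth kinase complex mTORC1. How Tsc1 was deleted, in which cells, and which alleles the controls carry is not stated in the labels. The labels name replicates without saying that each came from a separate mouse, so p-values measure the spread between these libraries.

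MicroRNAs of this seed family lower the output of messenger RNAs that carry matching sites. Known targets include cyclins D and E, Cdc25a and other drivers of the G1 to S transition, and the survival factor Bcl2, which is why the family is regarded as a brake on the cell cycle. In humans the miR-15a and miR-16 locus is often deleted in chronic lymphocytic leukaemia. In mouse heart, miR-195 rises after birth as cardiomyocytes leave the cell cycle.

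The mature sequences are shown to display the shared seed and the tails that set the members apart. They come from RefSeq (GRCm38.p6), which matched all 6 names. The arm shown for each is the one that carries the family seed, and miR-195 and miR-497 were read as miR-195a and miR-497a. Which arm was counted is not stated in the table. Capitals mark bases 2 to 8.
miR-15a-5p: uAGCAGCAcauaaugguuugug
miR-15b-5p: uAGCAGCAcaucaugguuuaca
miR-16-5p: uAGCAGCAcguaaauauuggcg
miR-195a-5p: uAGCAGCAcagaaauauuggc
miR-497a-5p: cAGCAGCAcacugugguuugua
miR-322-5p: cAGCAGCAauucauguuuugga
All 6 carry AGCAGCA at bases 2 to 8. Counted from 1 at the 5′ end, miR-195a-5p differs from miR-16-5p by G10A and U11G and is otherwise the same over the 21 positions compared. The miR-15a-5p and miR-15b-5p sequences match at 18 of 22 positions, differing by A12C, G20A, U21C and G22A. With so few differences, reads may be shared between close members, and how such reads were assigned is not stated.

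The family comes from 4 loci in the GENCODE M21 annotation of GRCm38. On chromosome 14, minus strand, the Mir15a hairpin at chr14:61632027-61632110 and the Mir16-1 hairpin at chr14:61631880-61631972 lie 54 bases apart inside Dleu2, a long non-coding RNA gene. Mir15a falls in an intron of Dleu2 and Mir16-1 overlaps an annotated Dleu2 exon. On chromosome 3, plus strand, Mir15b at chr3:69009772-69009835 and Mir16-2 at chr3:69009902-69009996 lie 66 bases apart in an intron of Smc4, which encodes a condensin subunit. Mature miR-16-5p is identical from Mir16-1 and Mir16-2, so its level is the sum of both loci. On chromosome 11, plus strand, Mir497 at chr11:70234717-70234800 and Mir195a at chr11:70235042-70235135 are separated by 241 bases. The Mir497b hairpin covers the Mir497 interval on the opposite strand. On the X chromosome, minus strand, Mir322 at chrX:53054255-53054349 lies next to Mir503, with Mir351, Mir542, Mir450-1, Mir450-2 and Mir450b within 10 kb.

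The libraries held 6489735 to 10901280 miRNA reads in Tsc1 mutants and 6228497 to 12129069 in controls. All levels below are normalised reads, as deposited by the authors, and within a library they are whole multiples of 1 step, which was read as 1 read. One read was worth 0.849 to 1.43 normalised reads in mutants and 0.711 to 1.68 in controls. Of 45 pairs of libraries, 0 held the same values and 0 were as close as counting error alone would make them (chi-square test over miRNAs). The labelled tissue was checked by miR-122, the dominant hepatocyte miRNA, which made up 29.3 ± 4.52% of miRNA reads in mutants and 32.9 ± 5.30% in controls (SD, n = 5 each). Replicate 1 of each genotype deviated from its group in the same way, with a correlation of 0.812 across miRNAs, and control replicate 2 held the highest levels of biliary epithelial and striated muscle miRNAs. Comparisons were therefore also run without these 3 libraries. In liver tissue, fewer cells of a type and less RNA per cell cannot be told apart.

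No family member passed the test for a difference between Tsc1 mutant and control liver. The count was 0 of 6, where 13.0% of all 285 miRNAs passed an adjusted p of 0.05 with limma, 10.9% as higher and 2.11% as lower in mutants. The comparison was made on log2(normalised reads + 1), with Benjamini-Hochberg adjustment over all 285 miRNAs. Of the 6 members, 3 had a difference above 0 and 3 below it, and their median was -0.02 beside -0.06 over all miRNAs. The highest 95% limit was 1.00, for miR-15a, and the lowest was -0.71, for miR-15b, on the log2 scale. Levels of the genotypes overlapped for all 6 members, a count of 0 of 6 that stands beside 12.6% of all miRNAs without overlap, 10.2% higher and 2.46% lower in mutants.

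**Figure D1:**
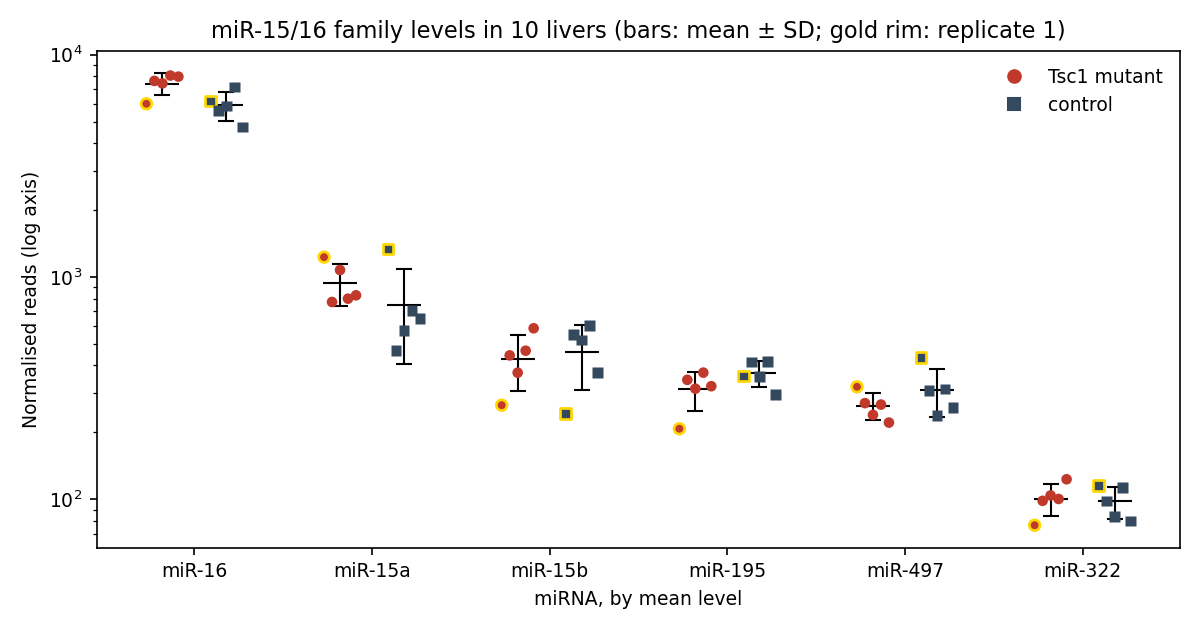
Levels of the 6 family members in normalised reads (log axis) in each Tsc1 mutant and control liver; points are libraries, bars are mean ± SD of 5 libraries, and a gold rim marks replicate 1. The genotypes overlap for every member, and miR-16 averages 7411 normalised reads in mutants and 5908 in controls.

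The most abundant member was miR-16, known for targeting cyclins D and E and Bcl2. It had 6009, 7614, 7423, 8049 and 7960.3 normalised reads in Tsc1 mutants, against 6176, 5616, 5879.6, 7148 and 4723 in controls, each by replicate. In 4 of 5 mutants it lay above every control, and mutant replicate 1 lay among the controls. The means were 7411 ± 824 in mutants and 5908 ± 880.3 in controls (SD, n = 5 each). This 1.26-fold difference, with a 95% interval of 1.02 to 1.56, was 0.33 ± 0.14 on the log2 scale (SE). The unadjusted limma p was 0.0365 and the limma adjusted p 0.179. An unadjusted limma p under 0.05 was found for 1 of the 6 members, miR-16, and for 22.5% of all miRNAs, 14.4% as higher in mutants. The call depended on how libraries were weighted: with limma's array weights the difference was 0.41 with a limma adjusted p of 0.0213. Array weights moved calls beyond the family too, with 23 of all miRNAs called lower in place of 6. Calls of higher over all miRNAs numbered 31 in the main fit and 19 to 40 over the other settings. With replicate 1 of each genotype left out it was 0.42 with a limma adjusted p of 0.0527. Over all 24 other settings the limma adjusted p of miR-16 ran from 0.0213 to 0.365.

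Red blood cells are rich in miR-16, so erythroid miRNAs were read beside it. The 3 listed erythroid miRNAs, miR-451, miR-144 and miR-486, summed to 3431 to 6533 normalised reads in mutants and 3886 to 5924 in controls. Of these, 0 of 3 passed in either direction, beside 13.0% of all miRNAs. Differences were above 0 for 2 of 3, with a median of 0.11. The most abundant, miR-486, was at 0.11 ± 0.35 (log2 difference ± SE, limma adjusted p = 0.951). On the same scale miR-144 was at 0.32 ± 0.21 (limma adjusted p = 0.444) and miR-451 at -0.06 ± 0.33 (limma adjusted p = 0.957). None of the 3 was at 0 in any library, and the part of red blood cells in the miR-16 level was not tested.

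The partner of miR-16 on chromosome 14, miR-15a, was lower in level and more variable. It had 1228, 772, 1075, 799 and 827 normalised reads in Tsc1 mutants, against 1335, 466, 573, 707 and 649.6 in controls. The highest value of each genotype was that of replicate 1. Apart from control replicate 1, every control lay below every mutant. The means were 940.002 ± 201 in mutants and 746 ± 342 in controls (SD, n = 5 each), and the log2 difference was 0.41 ± 0.27 (SE, limma adjusted p = 0.444). The result depended on single libraries. With 1 library left out, calls over all miRNAs ran from 28 to 34 as higher and 2 to 10 as lower. For miR-15a, the log2 difference without control replicate 1 was 0.64 with a limma adjusted p of 0.0437. Without control replicate 2 it was 0.26 with a limma adjusted p of 0.699. Without replicate 1 of both genotypes it was 0.54 with a limma adjusted p of 0.0598. Over all 24 other settings the limma adjusted p of miR-15a ran from 0.0437 to 0.699.

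The member from the Smc4 locus on chromosome 3, miR-15b, showed the opposite deviation in the replicates 1. It had 265, 444, 371, 466 and 588 normalised reads in Tsc1 mutants, against 243, 552, 519.9, 606 and 371 in controls. Replicate 1 was the lowest library of each genotype. The means were 427 ± 119 in mutants and 458 ± 149 in controls (SD, n = 5 each), with a log2 difference of -0.08 ± 0.29 (SE, limma adjusted p = 0.952). The sign of this difference turned under 3 of 24 other settings, all of which left out 1 library, with values of up to 0.08. Its 95% interval, -0.71 to 0.56, leaves room for a fold of 0.610 to 1.47.

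**Figure D2:**
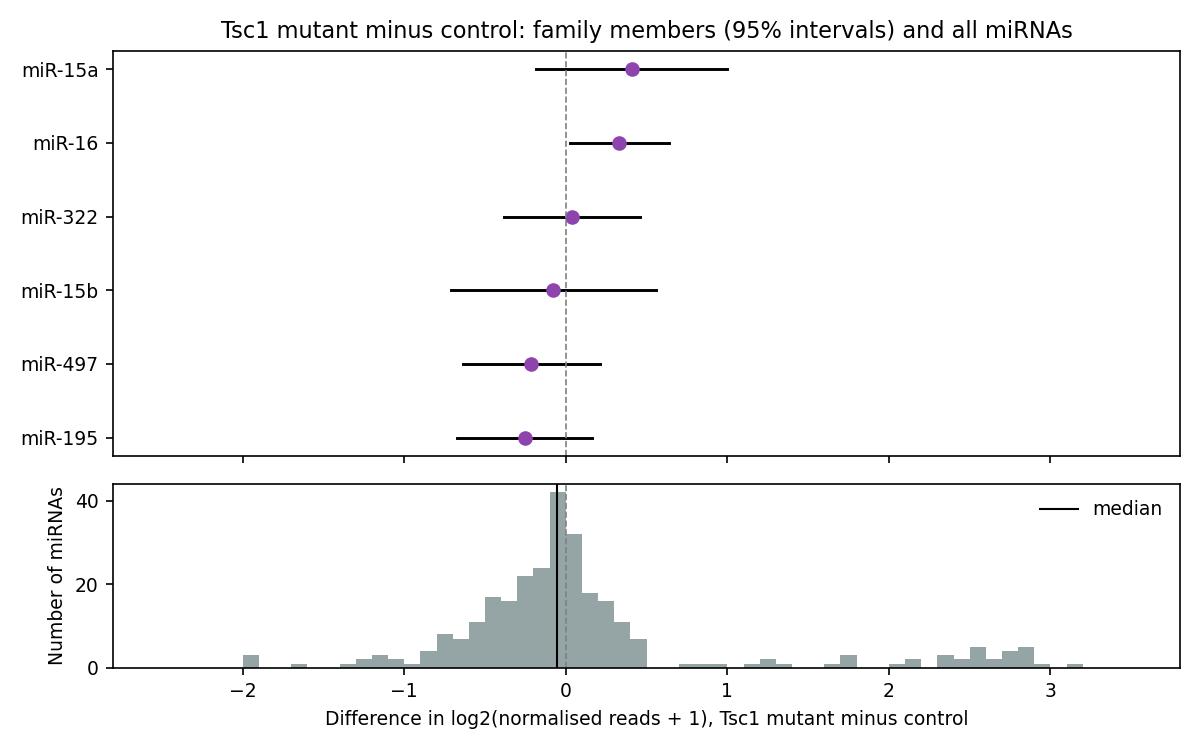
Top, log2 difference (Tsc1 mutant minus control) of each family member with its 95% limma interval; bottom, number of miRNAs at each difference, with the median of all 285 as a line. The members lie between -0.25 and 0.41, on both sides of the median of -0.06.

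The chromosome 11 pair had lower means in Tsc1 mutants, within the spread between libraries. The miRNA miR-195, which holds back Chek1 and other mitotic genes in mouse heart, had 208, 345, 314, 371 and 323 normalised reads in mutants, against 358, 415, 357, 416 and 297 in controls. Mutant replicate 1 lay below every control and the other 4 mutants lay within their range. The means were 312 ± 62.4 in mutants and 368 ± 49.4 in controls (SD, n = 5 each), with a log2 difference of -0.25 ± 0.19 (SE, limma adjusted p = 0.527). Leaving out mutant replicate 1 brought the difference of miR-195 to -0.11, and with array weights it was -0.11 too.

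Its neighbour miR-497, also known to target cell cycle genes, had 321, 271, 239.7, 267 and 221 normalised reads in mutants, against 433, 309, 239, 313 and 259 in controls. Replicate 1 was the highest library of each genotype, and mutant replicate 5 lay below every control. The means were 264 ± 37.6 in mutants and 310.4 ± 75.6 in controls (SD, n = 5 each), with a log2 difference of -0.21 ± 0.19 (SE, limma adjusted p = 0.613). Leaving out control replicate 1 brought the difference of miR-497 to -0.09. Mutant replicate 1 thus held the lowest miR-195 and the highest miR-497 of its genotype, although both hairpins lie at 1 locus.

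The least abundant member was miR-322, the rodent counterpart of human miR-424, known for targeting Cdc25a during muscle differentiation. It had 76.5, 98.5, 104, 100.4 and 123 normalised reads in mutants, against 115, 98.1, 83.6, 113 and 80.0 in controls. Mutant replicate 5 lay above every control and mutant replicate 1 below, and the values rest on 67 to 144 reads per library. The means were 100.5 ± 16.6 in mutants and 97.9 ± 16.1 in controls (SD, n = 5 each), a log2 difference of 0.04 ± 0.19 (SE, limma adjusted p = 0.957). Its 95% interval ran from -0.39 to 0.46 and its sign turned when mutant replicate 5, control replicate 3 or control replicate 5 was left out, down to -0.04.

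Mature members are 21 or 22 bases long, so their levels can be set side by side, although ligation and amplification can favour some sequences. By mean level the order was miR-16, miR-15a, miR-15b, miR-195, miR-497 and miR-322. Both ends of the order were clear, with miR-16 above miR-15a in 10 of 10 libraries, 7.90-fold by the means, and miR-497 above miR-322 in 10 of 10, 2.89-fold. The middle was not: miR-15a exceeded miR-15b in 5 of 5 mutants and 4 of 5 controls, miR-15b exceeded miR-195 in 5 of 5 mutants and 4 of 5 controls, and miR-195 exceeded miR-497 in 4 of 5 mutants and 4 of 5 controls. The exceptions were control replicate 2 for the first, control replicate 1 for the next and replicate 1 of each genotype for the last.

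Summed over its 6 members, the family reached 8107, 9544, 9527, 10053 and 10042 normalised reads in Tsc1 mutants, against 8660.0, 7455, 7652, 9302 and 6379.6 in controls. In 4 of 5 mutants the sum lay above every control, as for miR-16, which supplied most of it. The means were 9455 ± 796 in mutants and 7890 ± 1131 in controls (SD, n = 5 each), and the log2 difference was 0.27 ± 0.11 (SE). The other 5 members together gave 2043 ± 75.4 in mutants and 1981 ± 336 in controls (SD, n = 5 each). As a share of all miRNA reads the family made up 0.103 ± 0.00802% in mutants and 0.0832 ± 0.0140% in controls (SD, n = 5 each). The sum was chosen with the members' values known and was given no test.

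Within the family, miR-16 made up 78.2 ± 2.44% of the sum in mutants and 74.9 ± 2.31% in controls (SD, n = 5 each). The share of miR-195 was 3.28 ± 0.448% in mutants and 4.69 ± 0.529% in controls, from 2.56 to 3.69% in mutants and from 4.13 to 5.56% in controls. It was the share that did not overlap between genotypes, while those of miR-15a, miR-15b, miR-16, miR-322 and miR-497 did. The ratio of each member to miR-16 within a library was read as well. Like the share, this ratio depends on the level of miR-16, and neither depends on scaling. As miR-16 supplied most of the sum, the share of miR-195 follows its ratio to miR-16 closely. The share has no counterpart outside the family, and for the ratio the count over other miRNAs is given below.

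For miR-195 that ratio was 3.46, 4.53, 4.24, 4.61 and 4.05% of miR-16 in Tsc1 mutants, against 5.80, 7.38, 6.07, 5.81 and 6.28% in controls. Every mutant lay below every control, and the mean log2 ratio was -4.59 ± 0.17 in mutants and -4.00 ± 0.14 in controls (SD, n = 5 each), a difference of -0.59. Of the 280 other miRNAs with no 0 in any library, 7.50% had lower and 8.93% higher ratios in every mutant than in every control. The median difference of these ratios over the 280 miRNAs was -0.39, beside a log2 difference of 0.33 for miR-16 itself, and the value of miR-195 ranked 82 of 280 from the lowest. The ratios of miR-497 and miR-322 to miR-16 lay below every control in 4 of 5 mutants each, with differences of -0.55 and -0.29. Those of miR-15a and miR-15b overlapped more widely, with differences of 0.08 and -0.41. These ratios were chosen after the members' values were seen and were given no test.

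**Figure D3:**
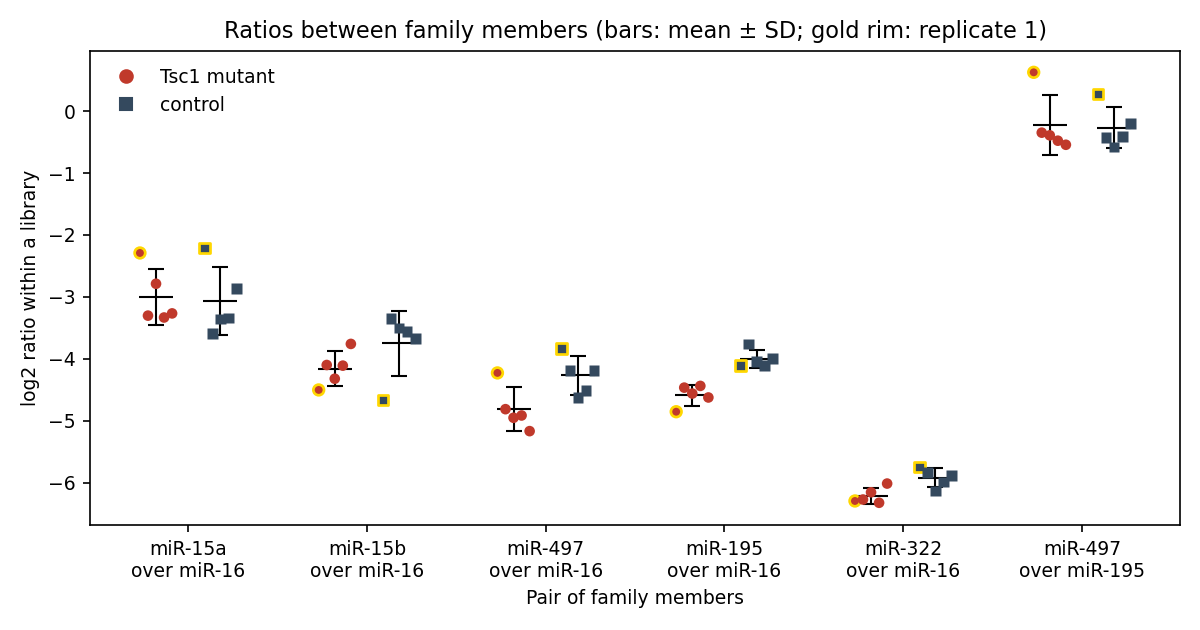
Log2 ratio between pairs of family members within each library, Tsc1 mutant left of control; points are libraries, bars are mean ± SD of 5 libraries, and a gold rim marks replicate 1. The ratio of miR-195 to miR-16 is lower in every mutant than in every control, and the other pairs overlap.

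The largest deviations of a single library from the others of its genotype passed 1 on the log2 scale. The 6 differences between genotypes, from -0.25 to 0.41, are between means of 5 libraries. Means vary less than single libraries, so the sizes of these measures cannot be set against each other. Against the median of the other 4 libraries of its genotype, replicate 1 had a miR-15a level higher by 0.60 in mutants and 1.13 in controls on the log2 scale. Its miR-15b level stood at -0.78 in mutants and -1.14 in controls on the same scale. The ratio of miR-15a to miR-15b was therefore 463% in mutant replicate 1 and 550% in control replicate 1, and ran from 141 to 290% in the other mutants and from 84.3 to 175% in the other controls. For miR-16 the deviation of replicate 1 was -0.37 in mutants and 0.10 in controls, and for miR-497 it was 0.34 in mutants and 0.62 in controls.

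**Figure D4:**
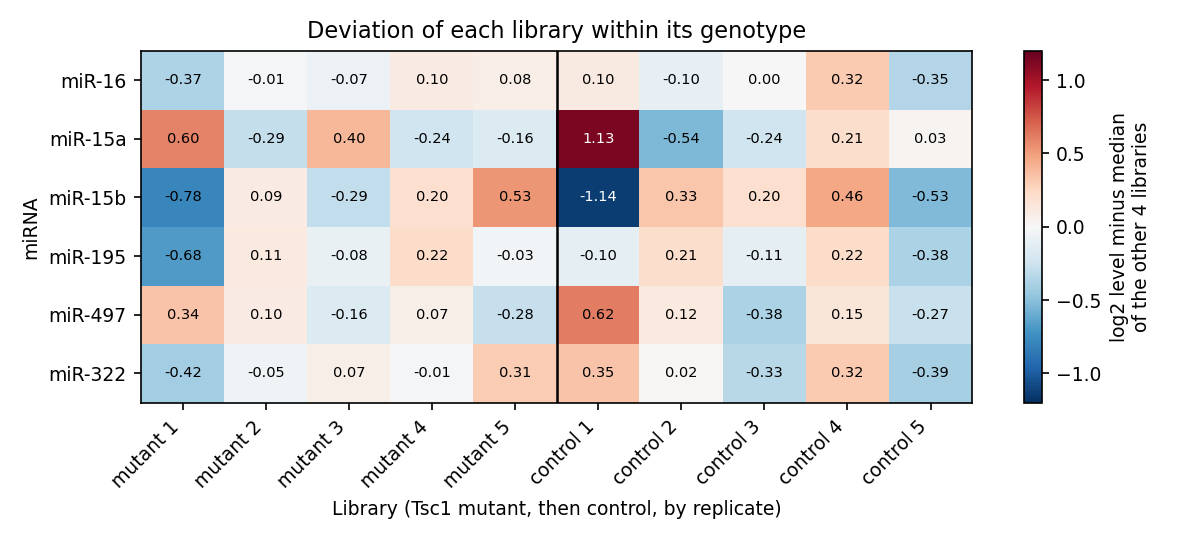
Log2 level of each family member in each library minus the median of the other 4 libraries of the same genotype, Tsc1 mutant left of control. The extreme cells are miR-15a at 1.13 and miR-15b at -1.14 in control replicate 1, with the same signs in mutant replicate 1.

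Profiles over the 10 libraries were compared by the root mean square difference of log2(normalised reads + 1), each centred on its own mean. A small value means that 2 profiles are alike or that both vary little. The SD of a member over the 10 libraries ran from 0.23 for miR-322 and 0.25 for miR-16 to 0.48 for miR-15a. Between miR-15a and miR-15b this was 0.84, above the median of 0.67 between miR-15a and the miRNAs outside the family. Between the chromosome 11 partners miR-195 and miR-497 it was 0.37, and 0.11 over the 8 libraries without the replicates 1. Without these, miR-15a and miR-15b stood 0.51 apart, no longer above the median for miR-15a, which was then 0.52. The closest pair of members over all 10 libraries was miR-16 and miR-322, at 0.19, whose hairpins lie on different chromosomes. Without the replicates 1 this pair stood 0.16 apart, and the closest pair was miR-195 and miR-497.

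Outside the family the profile nearest to miR-16 was that of miR-107, at 0.13, followed by miR-103 at 0.17, where the median over miRNAs outside the family was 0.55. Over the 8 libraries without the replicates 1, miR-107 was again the nearest of 279, at 0.10, and miR-103 ranked 3, behind let-7g. Both carry the 7 letters of the family seed 1 base nearer the 5′ end, at bases 1 to 7. Their sequences are shown for this offset, with bases 2 to 8 in capitals as above.
miR-107-3p: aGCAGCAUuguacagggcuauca
miR-103-3p: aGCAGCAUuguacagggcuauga
miR-503-5p: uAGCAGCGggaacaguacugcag
The last, miR-503, shares bases 2 to 7 with the family and differs at base 8. Among 249 of 285 miRNAs matched to RefSeq, no further hit held AGCAGCA within bases 1 to 8 or AGCAGC at bases 2 to 7. Any hits on 1 autosome, which holds no family hairpin, were removed after the search, so this statement does not cover it.

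**Figure D5:**
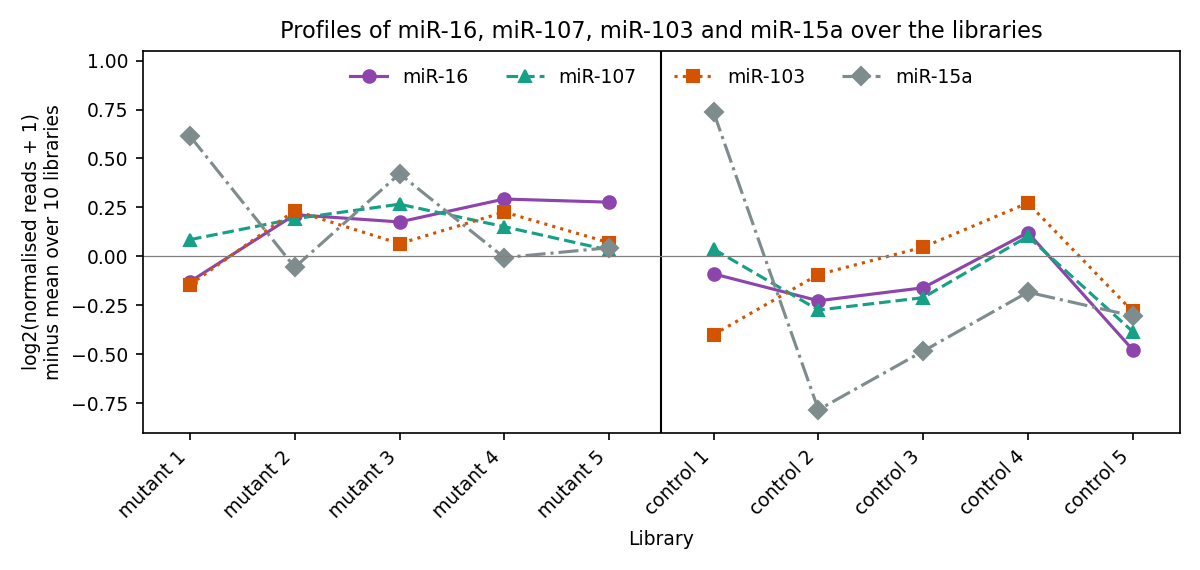
Log2(normalised reads + 1) of miR-16, miR-107, miR-103 and miR-15a in each library, minus the mean of that miRNA over 10 libraries, Tsc1 mutant left of control. The root mean square difference from miR-16 is 0.13 for miR-107, 0.17 for miR-103 and 0.45 for miR-15a.

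These relatives did not pass the test. The insulin-sensitivity miRNA miR-107 had 3348 ± 212 normalised reads in mutants and 2754 ± 399 in controls (SD, n = 5 each), a log2 difference of 0.29 ± 0.13 (SE, limma adjusted p = 0.205). It lay above every control in 3 of 5 mutants. Under array weights miR-107 passed as higher, with a log2 difference of 0.35 and a limma adjusted p of 0.0341, where the range over 24 settings was 0.0341 to 0.414. The more abundant miR-103 averaged 31539 ± 3279 in mutants and 28082 ± 5243 in controls (SD, n = 5 each), with a log2 difference of 0.18 ± 0.14 (SE, limma adjusted p = 0.543). By the same measure the nearest profiles were miR-101b and miR-30e for miR-15a, at 0.19 and 0.20, and miR-151-5p and miR-98 for miR-15b, at 0.17 and 0.18. For miR-195 they were miR-338-5p and miR-335-5p, at 0.18 and 0.19, for miR-497 miR-17 and miR-339-5p, at 0.13 and 0.16, and for miR-322 miR-652 and miR-31, at 0.18 and 0.19. Over the 8 libraries without the replicates 1, miR-30e and miR-101b ranked 1 and 2 of 279 for miR-15a, miR-98 ranked 2 for miR-15b, miR-17 ranked 2 for miR-497 and miR-652 ranked 1 for miR-322. The rest were not the nearest there: miR-151-5p ranked 7 for miR-15b, miR-339-5p 9 for miR-497, miR-31 27 for miR-322, and miR-335-5p and miR-338-5p 12 and 29 for miR-195. None of these 12 passed with all libraries weighted alike, where 13.0% of all miRNAs did. They were picked for profiles close to those of members that did not pass, genotype difference included. Their count therefore cannot be set against that share. With array weights, or without control replicate 1, miR-30e passed as higher, with log2 differences of 0.34 and 0.44 and limma adjusted p of 0.0481 and 0.0471, in a range over 24 settings of 0.0471 to 0.605. Array weights moved calls over all miRNAs too, with 23 called lower in place of 6.

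At the X-linked locus of miR-322, 0 of 6 listed neighbours passed in either direction, beside 13.0% of all miRNAs. Their median log2 difference was 0.06. The nearest, miR-503, which also targets cell cycle genes, averaged 50.3 ± 20.1 normalised reads in mutants and 55.1 ± 39.3 in controls (SD, n = 5 each), on 8 to 149 reads per library. Its log2 difference was 0.09 ± 0.49 (SE, limma adjusted p = 0.957). Relative to miR-322 it varied widely, from 31.4 to 107% of the miR-322 level in mutants and from 11.9 to 103% in controls, with replicate 1 highest in each genotype. The most abundant neighbour, miR-351, averaged 1532 ± 230 in mutants and 1813 ± 475 in controls (SD, n = 5 each), with a log2 difference of -0.20 ± 0.22 (SE, limma adjusted p = 0.712). With single libraries left out it ran from -0.41, without control replicate 1, to -0.11, without mutant replicate 1. The same libraries moved miR-542-3p, at 0.15 with all of them, to 0.35 without control replicate 1 and 0.0011 without mutant replicate 1. The others were miR-450a at 0.04, miR-450b-3p at -0.06 and miR-450b-5p at 0.07.

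Other miRNAs of cell cycle control also gave no call, where 13.0% of all miRNAs passed, 10.9% as higher and 2.11% as lower. At that share, lists this short would hold few calls. Of 17 listed miRNAs known to hold back the cell cycle, which include let-7, miR-26, miR-34, miR-103, miR-107, miR-145 and miR-503, 0 passed in either direction, with a median log2 difference of 0.09. The most abundant, let-7f, was at 0.31 ± 0.16 (SE, limma adjusted p = 0.296). Of 13 miRNAs known to favour proliferation, which include miR-17-92 members, miR-21, miR-221 and miR-222, 0 passed in either direction, with a median of -0.07. The most abundant, miR-21, was at -0.12 ± 0.31 (SE, limma adjusted p = 0.917). Both medians stand beside -0.06 over all miRNAs. Other settings moved these counts to at most 3 of 17 higher and 2 of 13 lower, the larger numbers with array weights or without the replicates 1. The hepatocyte list held 1 called miRNA of 5, miR-802, which was higher in mutants, and miR-122 was at -0.21 ± 0.19 (SE, limma adjusted p = 0.608).

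In 5 lists of other cell types, each of 6 or fewer miRNAs, no member passed, beside 13.0% of all miRNAs. Differences were above 0 for 3 of 6 leukocyte miRNAs, with a median of -0.06, and the most abundant, miR-146a, was at -0.21. They were above 0 for 0 of 2 endothelial miRNAs (median -0.05, miR-126-3p at -0.02) and for 2 of 6 of stellate and smooth muscle cells (median -0.08, miR-143 at -0.39). The biliary epithelial list had 0 of 5 above 0, a median of -0.74 and miR-200b at -0.68. The striated muscle list had 1 of 3 above 0, and its median was that of miR-1a, -1.27. Control replicate 2 held the highest level of both miRNAs, and without it miR-200b was at -0.13 and miR-1a at -0.50. With other single libraries left out they reached as low as -0.85 and -1.70.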

How the data were processed

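Per the labels, small RNA libraries were made from total RNA of liver and run on an Illumina HiSeq. The deposited table holds a normalised signal per miRNA and library, and the only tool in the submitters' processing notes is DESeq. Which aligner, genome build, annotation and filters were used is not given in the sources used here. Within each library 100% of values were whole multiples of a single step, within 0.001, and dividing by that step gave the reads stated here. They are inferred from the values, and the table has too few low values to settle that each step is 1 read. These reads carry no molecular identifiers, so depth speaks of counting error only.

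Each column name holds a library number that 1 sample's description also holds, which linked columns to samples. The log2(value + 1) levels were compared with limma 3.58.1 in R 4.3.3 (intensity trend, Benjamini-Hochberg over 285 miRNAs, all with a mean of at least 5), a scale that understates fold changes of low miRNAs. The fit was tested on simulated data. Alternatives changed the pseudocount, filter, scaling, weights, replicate block and libraries kept. Count models were not run, because the reads are inferred, and voom on these reads was added after seeing the data. Family members and lists were chosen with earlier results of these data known. Named miRNAs were the members, their relatives by seed or locus, the 2 nearest profiles of each member and the most abundant miRNA of each list. The differences of miR-144 and miR-451 were added, and miR-802 and let-7g were named, after their values were seen. Hairpins are from GENCODE M21, and figures used matplotlib 3.10.9.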

Additional observations from a re-analysis of the deposited data

Results flagged for a closer look

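Among 104 sets of 5 values (levels, shares and ratios by genotype), 14 had a lowest or highest library so far from the rest that the gap, as a share of the whole range, passed Dixon's critical value. About 5.2 would be so by chance, and the sets reuse values, so the 14 are not separate events.

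Of these, 8 came from control replicate 1. Its miR-15a, at 1335 normalised reads, compares with 466 to 707 in the other controls. It also held the most miR-542-3p, at 403, and miR-17, at 2564, and the least miR-351, at 990.1, and miR-126-3p, at 95159 normalised reads. Its log2 ratio of miR-15b over miR-16 was -4.67, that of miR-103 over miR-107 was 2.85 and that of miR-103 over miR-16 was 1.86, each the lowest of the controls.

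In Tsc1 mutants, replicate 1 had the lowest family sum, 8107 normalised reads beside 9527 to 10053 in the rest, and the lowest miR-335-5p, 395. Its log2 ratio of miR-497 over miR-195 was 0.63, against -0.54 to -0.35 in the other mutants. Mutant replicate 2 had the least miR-450b-5p, 62.8 normalised reads. Control replicate 2 had the most miR-200b, 20271, and miR-1a, 5534 normalised reads.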

How the results depend on the processing

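Results were recomputed under 24 other settings, and the family sum under 17, where its log2 difference stayed between 0.20 and 0.36. Those of miR-15a, miR-16, miR-195 and miR-497 kept their signs in all 24. Family members called higher numbered 1 with array weights (miR-16) and, with single libraries left out, 0 to 1 (1 without control replicate 1, miR-15a); none was called lower. Over all miRNAs, calls of higher numbered 31, and 19 with a mean of at least 50 (28 to 34 with single libraries left out). At most 40 were called higher under any of the 24 settings. Calls of lower numbered 6, and 3 with a mean of at least 50, 23 with array weights, 11 without both replicates 1, 13 without control replicate 2 as well, and 2 to 10 with single libraries left out. Calls of higher in the list that holds back the cell cycle numbered 1 under CPM scaling, 1 under TMM, 3 with array weights, 2 without both replicates 1, 2 without control replicate 2 as well, and 0 to 1 with single libraries left out, where its median ran from 0.032 to 0.24. Calls of lower in the proliferation list numbered 2 with array weights, 2 without both replicates 1, 2 without control replicate 2 as well, and 0 to 2 with single libraries left out.

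With the replicate number as a block, 0 members were called, 10 miRNAs were called lower, and 1 of the list that holds back the cell cycle was called higher. Same-numbered libraries correlated above 0.1 in 3 of 5 pairs (-0.02 to 0.81) and 4 of 10 libraries correlated best with their own number, so the numbers were not taken as pairs.

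Signs of small differences turned. Under CPM scaling, miR-98 was at 0.038, miR-652 at 0.034 and miR-126-3p at 0.022. Under TMM, miR-98 was at 0.0049 and miR-652 at 0.00071. Under upper quartile scaling, miR-98 was at 0.025, miR-652 at 0.021 and miR-126-3p at 0.0092. Under median ratios without chromosome 12, miR-98 was at 0.061, miR-652 at 0.057, miR-126-3p at 0.045, miR-450b-3p at 0.011 and miR-339-5p at 0.0017. With voom, added after seeing the data, miR-98 was at 0.0068. With array weights, miR-652 was at 0.087, miR-450b-3p at 0.072, miR-339-5p at 0.0058 and miR-486 at -0.17. Without both replicates 1, miR-652 was at 0.057, miR-450b-3p at 0.046 and miR-486 at -0.13. Without control replicate 2 as well, miR-652 was at 0.10, miR-450b-3p at 0.17, miR-486 at -0.12 and miR-200b at 0.0044. With single libraries left out, or the 3 libraries together, the ranges were -0.29 to 0.081 for miR-15b, -0.040 to 0.22 for miR-322, -0.32 to 0.44 for miR-503, -0.060 to 0.13 for miR-450a, -0.18 to 0.17 for miR-450b-3p, -0.089 to 0.29 for miR-450b-5p, -0.30 to 0.092 for miR-151-5p, -0.25 to 0.21 for miR-98, -0.22 to 0.0064 for miR-335-5p, -0.064 to 0.10 for miR-652, -0.18 to 0.025 for miR-31, -0.17 to 0.018 for miR-17, -0.16 to 0.041 for miR-339-5p, -0.17 to 0.30 for miR-486, -0.14 to 0.056 for miR-126-3p, -0.85 to 0.0044 for miR-200b and -0.30 to 0.12 for miR-21. For none of these was the limma adjusted p under 0.05; the cause was not tested. Fits with count models were not run, because 285 miRNAs hold too few low values to settle that each step is 1 read. Depth limits miR-503, miR-450b-5p, miR-338-5p and miR-450b-3p, with 8, 31, 37 and 39 reads in their lowest libraries, and among members miR-322, with 67.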
